A study of Homo sapiens with 12 samples.

Results

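The genes for the proteins of the human mitochondrial ribosome were examined in neutrophil-like HL-60 cells given advanced glycation end products (AGEs), high glucose, both or bovine serum albumin (BSA). A gene was a member when its symbol began with MRPL or MRPS and a digit, stood once in the deposited table and reached 1 FPKM in at least 3 of 12 libraries. FPKM counts sequenced fragments, corrected for the length of the gene and the size of the library. All 78 symbols with such a name met these terms, out of 9751 genes tested, and the lowest single value of any member in any library was 1.90 FPKM. By name, 49 members belong to the large subunit (MRPL) and 29 to the small subunit (MRPS).

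Mitochondria keep their own ribosome, which translates the few messages of mitochondrial DNA into core subunits of the respiratory chain and ATP synthase. Its ribosomal RNAs are transcribed inside the organelle, whereas all of its proteins are encoded in the nucleus, made in the cytosol and imported. Many of the proteins descend from bacterial ribosomal proteins, and the others were added during mitochondrial evolution. Circulating neutrophils are known for few mitochondria and for living largely on glycolysis.

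HL-60 is a human promyelocytic leukaemia line that can be driven towards neutrophils, and the labels name the cells as neutrophils induced from it, grown in RPMI medium with fetal bovine serum. AGEs are proteins or lipids modified by sugars. Cells were stimulated for 24 hours with 0.05 ug/mL AGEs and 30 mmol/L D-glucose together, with 0.05 ug/mL AGEs, with 30 mmol/L D-glucose, or with 0.05 ug/mL BSA as the control, and each of these 4 groups has 3 libraries of whole RNA. Whether the glucose cells also received BSA and which agent induced the cells are not given in the labels, and the libraries of a group are not said to come from separate cultures. The p-values therefore measure the spread between these libraries, which may be technical.

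FPKM sums ran from 220444 to 233854 per library, and the number of reads behind a value is unknown. Of 20 neutrophil markers 14 passed the filter of at least 1 FPKM in at least 3 libraries, and markers that passed are called measured. The others were below it, absent from the deposited table or not found by symbol. ITGB2, CYBB and NCF4 were high. FPR1 and the specific granule genes CEACAM8 and CAMP lay below the median of 6.89 FPKM over all genes tested. In the BSA libraries CEACAM8 averaged 0.86 ± 0.145 FPKM, CAMP 2.35 ± 0.389 FPKM and FPR1 4.28 ± 0.234 FPKM (SD, n = 3). The libraries AGEs 1 and glucose 3 received the lowest quality weights from limma, at 0.181 and 0.418. Named values that move by over 1.5 times when 1 of them, or any other library, is left out are given with and without it.

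Promoter sequences were matched by symbol from RefSeq (GRCh38.p14) for 69 of the 78 members, as 250 bases before to 50 bases after the transcript start. Short letter patterns were searched on both strands for 4 factors known to act at mitochondrial and ribosomal genes: GCGCANGCG for NRF1, CCGGAAGT for ETS factors, ATGGCGGC for YY1 and CACGTG for the E-box. Each pattern was counted once per promoter, also where matches of different patterns overlap. The YY1 letters stood in 19 of 69 members (27.5%), against 7.48% of 7624 promoters of genes tested and 3.21% of all 27305 promoters. In 17 members (24.6%) they lay after the transcript start, against 5.25% of the promoters of genes tested. The NRF1 letters stood in 13 members (18.8%, against 16.7% of genes tested), the ETS letters in 11 (15.9%, against 10.8%) and the E-box in 6 (8.7%, against 10.9%). A match describes letters only, and binding was not measured. The ATG of the YY1 letters can also be a start codon, which was not matched here.

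In MRPL1, MRPS15 and MRPS24 every library given AGEs or glucose lay above every BSA library. This held in 3.85% of members, against 0.728% of all genes tested. The margin was small in MRPS24, with AGEs and glucose 1 at 6.646 FPKM and BSA 3 at 6.636 FPKM. It was also small in MRPS15, with AGEs 3 at 17.19 FPKM and BSA 3 at 17.1 FPKM. The YY1 letters stood in MRPL1, MRPS15 and MRPS24, and in MRPL9 and MRPL19, which lay lower in some groups. The stretches of 30 bases around the letters are shown for these members and for MRPS18A and MRPS30, small subunit by name but large subunit by place. Capitals mark the YY1 letters or, on the other strand, their complement, and each stretch is written along the strand of its gene.
MRPL1 (chr4:77862838-77862867, plus strand): gagtgcccaacATGGCGGCggccgtaaggt
MRPS15 (chr1:36464339-36464368, minus strand): cctgggccagcATGGCGGCgcccatgtaac
MRPS24 (chr7:43869477-43869506, minus strand): cttggcccaagATGGCGGCctccgtgtgca
MRPL9 (chr1:151763461-151763490, minus strand): tgcctgtgaacATGGCGGCgcccgttgtca
MRPL19 (chr2:75646797-75646826, plus strand): agctagctggcATGGCGGCctgcattgcag
MRPS18A (chr6:43687761-43687790, minus strand): ggtttttgaagATGGCGGCcctcaaggctc
MRPS30 (chr5:44808952-44808981, plus strand): cgcgggcaaagATGGCGGCggccaggtgtt
In all 7 stretches the letters are read on the strand of the gene, and each lies within the first 50 bases of the transcript. MRPL19 holds a second match, on the other strand and before its start (chr2:75646718-75646747, plus strand): gtcccatagcaGCCGCCATatggtggcaga. MRPL1, MRPS15 and MRPS24 stood higher, whereas MRPL9 and MRPL19 stood lower with AGEs alone and with glucose alone. In MRPL19 this came mainly from low values in AGEs 3, glucose 1 and glucose 3. With AGEs and glucose together, MRPL9 and MRPL19 differed from BSA by 0.02 and -0.05 (log2). All of these members, named after their values were seen, carry the same letters after their start.

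Of the 69 promoters, 38 held at least 1 of the 4 patterns and 9 held 2 or more. MRPL36 held 3 of them in the 110 bases before its start, and MRPL20 and MRPL3 held the ETS letters there. MRPL24, the member with the second smallest p in glucose minus BSA, held none. Capitals mark the patterns, on either strand.
MRPL36 (chr5:1799838-1799947, minus strand): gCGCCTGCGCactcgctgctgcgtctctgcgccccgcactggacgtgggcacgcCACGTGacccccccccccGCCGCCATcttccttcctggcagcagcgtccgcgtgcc
MRPL20 (chr1:1407294-1407403, minus strand): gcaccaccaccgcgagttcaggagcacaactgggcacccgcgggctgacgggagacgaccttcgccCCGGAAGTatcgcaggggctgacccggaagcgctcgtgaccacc
MRPL24 (chr1:156741089-156741198, minus strand): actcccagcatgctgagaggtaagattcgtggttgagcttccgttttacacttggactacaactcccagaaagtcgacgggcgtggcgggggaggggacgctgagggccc
The window of MRPL36 runs from the NRF1 letters over the E-box to the YY1 letters, and that of MRPL20 has the ETS letters once.

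Members differed widely in level although the ribosome holds most of its proteins once. The mean over 12 libraries ran from 2.45 FPKM for MRPL46 to 67.8 FPKM for MRPL12, a 27.7-fold range, with a median of 11 FPKM against 6.89 FPKM over all genes tested. MRPL12 is the protein of the stalk that recruits translation factors and is known to be present in several copies. Its values were 64.5, 67.1 and 67.9 FPKM with AGEs and glucose, 82.0, 71.2 and 57.4 FPKM with AGEs, 65.7, 65.8 and 81.8 FPKM with glucose, and 60.3, 66.0 and 63.4 FPKM with BSA. AGEs 1 and glucose 3 were the highest, and the groups overlapped.

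MRPL12 was followed by MRPS34 at 60.3 FPKM, MRPS21 and MRPS35 at 43.1 FPKM each, and MRPL47 at 42.2 FPKM. MRPS21 has a bacterial counterpart, whereas MRPS34 and MRPS35 are specific to mitochondria. The lowest after MRPL46 were MRPL42 at 2.93 FPKM, MRPS11 at 3.87 FPKM, MRPL22 at 4.07 FPKM and MRPL43 at 4.38 FPKM. MRPL22 lines the exit tunnel of the nascent chain and MRPS11 lies on the platform of the small subunit. Neighbours in this order often differed by less than the spread among libraries: MRPS21 ran from 32.2 to 50.7 FPKM and MRPS35 from 26.8 to 48.5 FPKM.

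**Figure D1:**
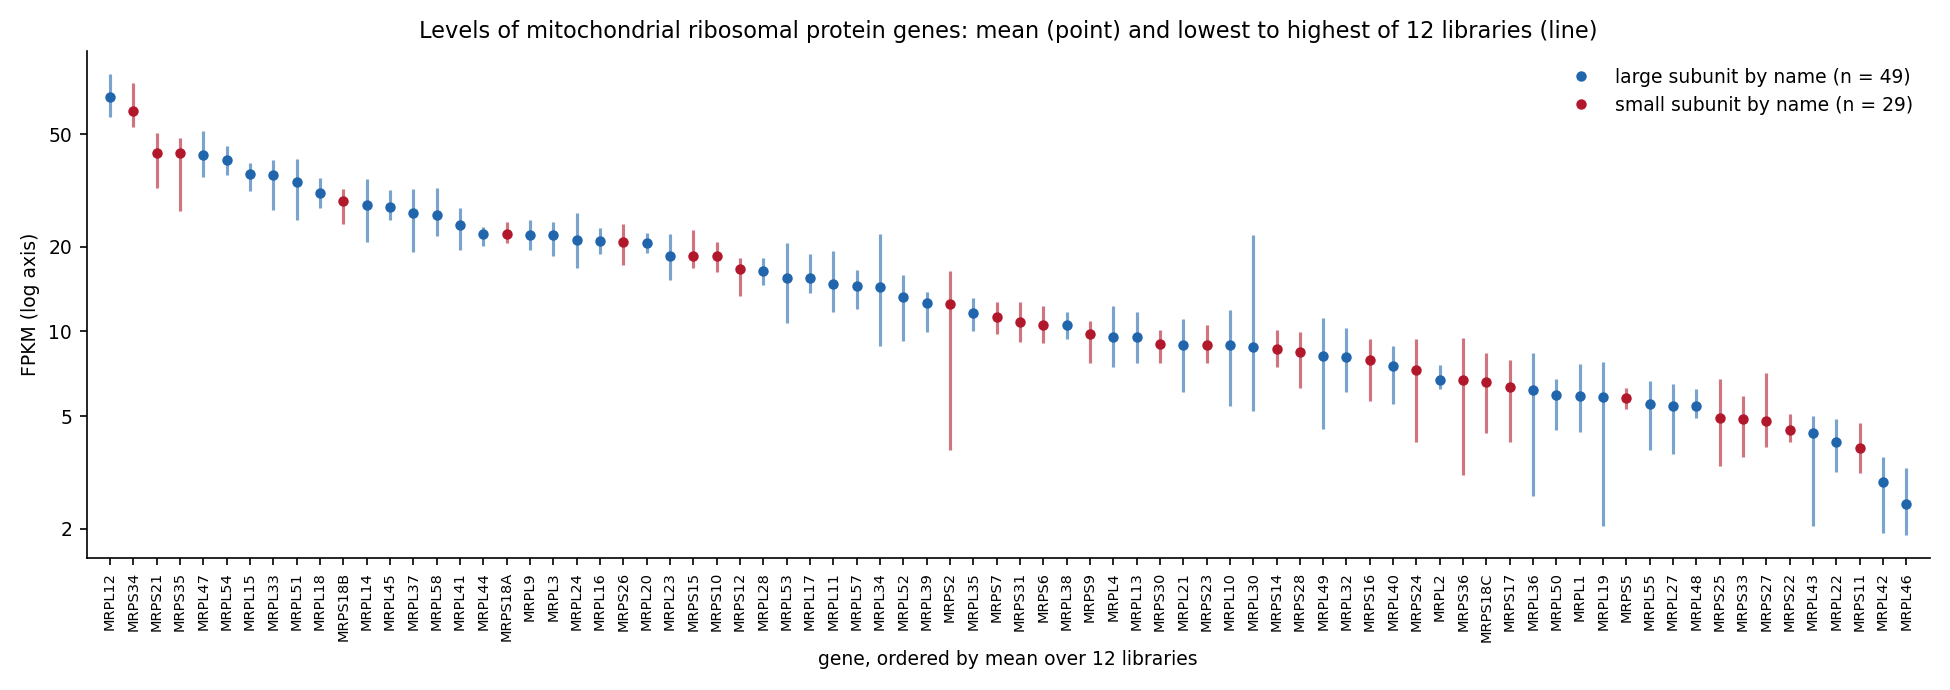
Level of each of the 78 members in FPKM on a log axis, ordered by the mean over 12 libraries; points are means, lines run from the lowest to the highest library, blue is large and red small subunit by name. The means fall from 67.8 FPKM for MRPL12 to 2.45 FPKM for MRPL46, and the lines of most neighbours overlap.

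Large subunit members had a median level of 14.4 FPKM (49 members) and small subunit members of 9.03 FPKM (29 members). The quartiles overlapped widely, at 7.52 to 22.2 FPKM for large and 6.6 to 18.5 FPKM for small subunit members. The 46 members listed with a bacterial counterpart, MRPL55 among them, had a median of 10.9 FPKM. The 31 listed as specific to mitochondria had a median of 12.6 FPKM. Members had shorter transcripts than other genes, with a median of 1722 bases for the longest transcript against 3607 over all genes tested, and a like GC content (47.7% against 48.1%).

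A few names do not match the place of the protein. MRPS18A and MRPS30 lie in the large subunit in ribosome structures, and MRPS36 (also KGD4) is now known as a component of the 2-oxoglutarate dehydrogenase complex, so that 51 large and 26 small subunit members remain by place. With this assignment the medians were 14.4 FPKM for the large and 9.36 FPKM for the small subunit. MRPS18A, MRPS18B and MRPS18C are paralogs with a common bacterial relative and differed in level, with means of 22.1, 29.1 and 6.60 FPKM over 12 libraries. In the split by origin only MRPS18C was listed with a bacterial counterpart, and MRPS18A and MRPS18B were listed as specific to mitochondria. MRPS30 averaged 9.03 FPKM.

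MRPS36 was among the less even members. Its values were 7.07, 9.45 and 8.94 FPKM with AGEs and glucose, 5.67, 9.297 and 5.196 FPKM with AGEs, 6.97, 6.14 and 3.09 FPKM with glucose, and 7.75, 4 and 7.02 FPKM with BSA. Each library with AGEs and glucose lay above each library with glucose, and the other groups overlapped. The steadiest members were MRPL2, near the peptidyl transferase centre, with a pooled SD within groups of 0.055 on the log2(FPKM + 1) scale, and MRPS5 with 0.059. The median of this SD was 0.159 over the members and 0.132 over all genes tested, so members varied somewhat more between libraries of a group than the median gene. The genes compared were not matched for level or transcript length, in which the members also differed.

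Of the 78 members 18 overlap another coding gene in the RefSeq annotation, whatever the strand, and the strand setting of the counting is not given in the sources used here. Among those described here MRPL24 overlaps HDGF, MRPS24 the read-through gene URGCP-MRPS24, MRPL9 OAZ3, MRPS34 EME2, MRPL36 NDUFS6 and MRPL49 SYVN1. MRPL43 overlaps SEMA4G, MRPS25 NR2C2, MRPS18A RSPH9, MRPL47 ACTL6A, MRPS18C ABRAXAS1 and MRPL2 KLC4. Many members also have processed pseudogenes, and how reads shared with them were counted is not given either.

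The comparisons with BSA ask how each stimulus, alone or together, stood against the control. No member passed the test in any of them. A call is a Benjamini-Hochberg adjusted p under 0.05 in limma on log2(FPKM + 1) over all 9751 genes. It was reached by 0 of 78 members in AGEs with glucose minus BSA (0.0103% of all genes), 0 in AGEs minus BSA (0.0308%) and 0 in glucose minus BSA (0.103%). An unadjusted p under 0.05 was found for 8, 6 and 11 members in that order, against 5.48%, 4.74% and 10.0% of all genes. These 3 comparisons share the BSA libraries.

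The members nonetheless lay mostly on 1 side of BSA, by small amounts. With AGEs and glucose 62 of 78 members (79.5%) had a difference above 0, with AGEs 51 (65.4%) and with glucose 61 (78.2%), against 47.9%, 49.5% and 49.6% of all genes tested. The median difference over members was 0.10, 0.06 and 0.10 on the log2(FPKM + 1) scale in the same order, or folds of 1.07, 1.04 and 1.07, against medians of all genes within 0.01 of 0. The difference was at most 0.25 in either direction for 69, 69 and 65 of 78 members. Between libraries of a group the median deviation of the members had an SD of 0.062, pooled over the groups. This is the spread of single libraries and not the error of a difference between groups of 3 libraries. The medians are therefore not judged by it.

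The medians moved with the correction for GC content and transcript length and with single libraries. With both trends, over GC content and over transcript length, removed together from each library, the medians became 0.05, 0.03 and 0.04 for AGEs with glucose, AGEs and glucose, and 49, 45 and 50 members lay above 0. Without AGEs 1 the median in AGEs minus BSA was 0.10 and without AGEs 2 it was 0.02. Without BSA 2 that median was 0.03 and without BSA 3 it was 0.11. Without glucose 1 the median in glucose minus BSA was 0.07, and without BSA 3 that in AGEs with glucose minus BSA was 0.15. Without AGEs 1 and glucose 3 together, 62, 61 and 64 members lay above 0, with medians of 0.10, 0.10 and 0.14.

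The same is seen in single libraries. The mean deviation of the 78 members from each gene's mean over 12 libraries was 0.044, 0.026 and 0.055 (log2) in the libraries with AGEs and glucose. It was -0.052, 0.094 and -0.071 with AGEs, 0.086, 0.080 and -0.078 with glucose, and -0.083, -0.124 and 0.024 with BSA. The 3 libraries with AGEs and glucose lay close together, with an SD of 0.015 over 3 libraries, against SDs of 0.090 with AGEs, 0.093 with glucose and 0.076 with BSA. Each of them lay above each BSA library, the lowest at 0.026 and the highest BSA library at 0.024. AGEs 2, glucose 1 and glucose 2 were the highest of all, whereas the means of AGEs 3 and glucose 3 stood near that of BSA 1. The median deviation was -0.009 in AGEs 3, -0.050 in glucose 3 and -0.101 in BSA 1, so AGEs 3 was low in the mean and not in the median.

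**Figure D2:**
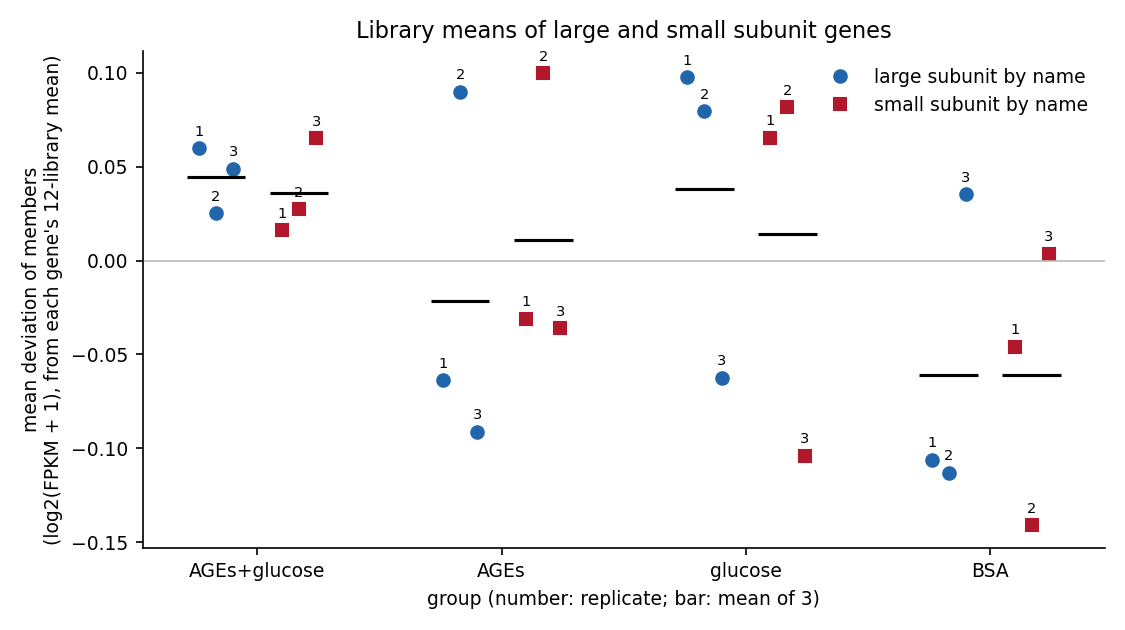
Mean deviation of large (blue circles) and small (red squares) subunit members from each gene's 12-library mean, on the log2(FPKM + 1) scale, in each library; numbers are replicates and bars the mean of 3. The libraries with AGEs and glucose lie close together, at a mean of 0.045 for large and 0.036 for small subunit members, and the other groups spread over both sides of 0.

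Glucose minus BSA held the member with the smallest p, MRPL1. It is the protein of the mobile stalk beside the site where spent transfer RNA leaves the ribosome. MRPL1 stood at 5.81, 7.67 and 7.24 FPKM with glucose, against 4.96, 4.403 and 4.62 FPKM with BSA. The glucose libraries all lay above the BSA libraries. The difference was 0.48 ± 0.10 (log2, SE; limma adjusted p = 0.138), a fold of 1.39. With library weights the adjusted p was 0.0434, and over all alternatives it ran from 0.0434 to 0.397.

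MRPL24, whose bacterial counterpart starts the assembly of the large subunit, was the next. It stood at 25.2, 26.3 and 21.9 FPKM with glucose, against 17.7, 16.8 and 20.5 FPKM with BSA. The groups did not overlap, but glucose 3 was close to BSA 3. The difference was 0.40 ± 0.09 (log2, SE; limma adjusted p = 0.161). It passed with GC and length trends removed (adjusted p = 0.0444) and with library weights (adjusted p = 0.0222), in a range of 0.0222 to 0.543 over the alternatives.

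MRPS26, a small subunit protein specific to mitochondria, had 21.6, 24.1 and 20.6 FPKM with glucose, against 17.2, 17.7 and 20.2 FPKM with BSA. The glucose libraries were again all above those with BSA, by 0.25 ± 0.08 (log2, SE; limma adjusted p = 0.358). On the other side, MRPL19 lay 0.95 ± 0.41 below BSA (limma adjusted p = 0.476), from 2 low glucose libraries that are described with the members of uneven values. It lay 1.45 below (log2 difference -1.45) without glucose 2, the glucose library that was not low. MRPL9, a large subunit protein with a bacterial counterpart, had 21.6, 19.9 and 20.2 FPKM with glucose, against 22.1, 22.5 and 24.1 FPKM with BSA. Its groups did not overlap and the difference was -0.15 ± 0.08 (log2, SE; limma adjusted p = 0.597). MRPS34, the most abundant small subunit member, differed by -0.18 ± 0.13 (limma adjusted p = 0.711), with overlapping groups, and by -0.06 without BSA 1.

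In all, 11 members (14.1%) had every glucose library above every BSA library, against 7.92% of all genes, and 1 member, MRPL9, had every one below (1.28%, against 9.03%). Of the 11, 7 were large and 4 small subunit members: MRPL1, MRPL15, MRPL16, MRPL20, MRPL24, MRPL49 and MRPL50, with MRPS15, MRPS24, MRPS26 and MRPS30.

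AGEs minus BSA was led by MRPS24, the counterpart of the bacterial protein at the entry of the messenger RNA channel. It stood at 8.36, 9.40 and 7.82 FPKM with AGEs, against 6.18, 4.06 and 6.64 FPKM with BSA. The AGEs libraries were all above, and BSA 2 was the lowest of all 12. The difference was 0.54 ± 0.15 (log2, SE; limma adjusted p = 0.933), and 0.36 without BSA 2. MRPL41, a large subunit protein known to bind BCL2, had 26.7, 26.5 and 23.7 FPKM with AGEs, against 20.3, 19.5 and 22.8 FPKM with BSA. The groups were apart by less than 1 FPKM, and the difference was 0.29 ± 0.10 (limma adjusted p = 0.958).

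MRPL1 had 5.35, 6.14 and 6.16 FPKM with AGEs, all above the BSA libraries, and differed by 0.28 ± 0.10 (log2, SE; limma adjusted p = 0.958). On the lower side the smallest p belonged to MRPL51, at -0.18 ± 0.13, MRPL9, at -0.11 ± 0.08, and MRPL19, at -0.53 ± 0.41 (limma adjusted p = 0.977 for each). MRPL51 and MRPL9 had overlapping groups. Each of these sizes hangs on single libraries. MRPL51 was at -0.06 without AGEs 1, -0.29 without AGEs 2 and -0.04 without BSA 3. MRPL9 was at -0.18 without AGEs 1, -0.05 without AGEs 3 and -0.07 without BSA 3. MRPL19 was at -0.12 without AGEs 3, the low AGEs library. Every AGEs library lay above every BSA library in 8 members (10.3%, against 4.82% of all genes), 3 large and 5 small. These were MRPL1, MRPL28 and MRPL41 with MRPS15, MRPS18A, MRPS23, MRPS24 and MRPS25. Every AGEs library lay below in 1 member, MRPL19 (1.28%, against 3.98%).

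AGEs with glucose minus BSA gave MRPL1 the smallest p again. It stood at 5.63, 6.30 and 6.37 FPKM with AGEs and glucose, and the difference was 0.33 ± 0.10 (log2, SE; limma adjusted p = 0.699). MRPL10 differed by 0.59 ± 0.21, with overlapping groups (limma adjusted p = 0.892), and by 0.91 without BSA 3. MRPS21 had 44.9, 48.7 and 44.3 FPKM with AGEs and glucose, against 38.8, 32.2 and 41.7 FPKM with BSA. Its groups did not overlap, and the difference was 0.29 ± 0.12 (limma adjusted p = 0.892), or 0.19 without BSA 2.

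Below BSA, MRPL11, a protein at the base of the factor-binding stalk, had 12.3, 13.6 and 14.1 FPKM with AGEs and glucose, against 17.1, 15.5 and 16.7 FPKM with BSA. All 3 were lower, by -0.28 ± 0.16 (log2, SE; limma adjusted p = 0.892). MRPS11 differed by -0.15 ± 0.12 and MRPL44, a protein with a ribonuclease fold near the tunnel exit, by -0.08 ± 0.07 (limma adjusted p = 0.913 and 0.917), each with overlapping groups. Leaving out 1 library with AGEs and glucose put MRPS11 at -0.10 (without 1) or -0.23 (without 3) and MRPL44 at -0.12 (without 1) or -0.04 (without 2). Members with every library of AGEs with glucose above every BSA library numbered 14 (17.9%, against 8.51% of all genes), 9 large and 5 small. MRPL11 was the 1 member with every library below (1.28%, against 9.14%).

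MRPS15, which binds the ribosomal RNA of the small subunit, was very even with BSA. It had 20.2, 18.1 and 19.8 FPKM with AGEs and glucose, 22.9, 18.3 and 17.2 FPKM with AGEs, 18.8, 17.4 and 18.7 FPKM with glucose, and 16.9, 16.9 and 17.1 FPKM with BSA. All 9 other libraries lay above the BSA libraries, AGEs 3 by the least. This held in 3 members, MRPS15, MRPL1 and MRPS24 (3.85%, against 0.728% of all genes tested). In MRPS24 the margin was small, with AGEs and glucose 1 at 6.646 FPKM and BSA 3 at 6.636 FPKM. The 3 members were named together after their values were seen.

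**Figure D3:**
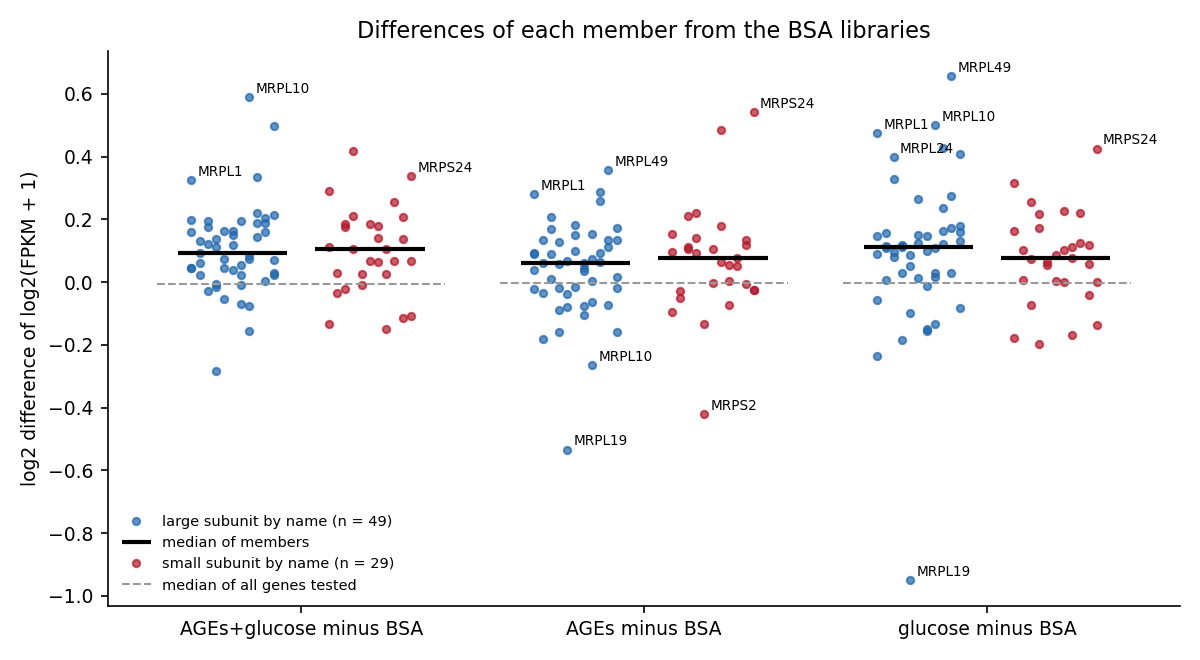
Difference of each member from BSA on the log2(FPKM + 1) scale, for AGEs with glucose, AGEs and glucose, with large subunit members in blue and small subunit members in red; black bars are medians of members and dashed lines medians of all genes tested. Most points lie just above 0, between -0.25 and 0.25, and a few members such as MRPL19, MRPL10 and MRPS24 lie farther out.

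Large and small subunit members both lay mostly above BSA. With AGEs and glucose 40 of 49 large and 22 of 29 small subunit members lay above 0, with medians of 0.09 and 0.10 (log2). With AGEs alone 32 large and 19 small subunit members did, with medians of 0.06 and 0.08, and with glucose alone 39 and 22, with medians of 0.11 and 0.08. The difference of the medians, large minus small, was -0.01, -0.02 and 0.04. The SD of that difference between libraries of a group was 0.022, which is again the spread of single libraries and not the error of these values. The value with glucose was 0.0065 without BSA 2, 0.0066 without glucose 1 and 0.0104 after quantile normalization. With GC and length trends removed the values with AGEs and glucose and with AGEs were -0.0356 and -0.058. With 1 library left out the value with AGEs and glucose ran from -0.03 to 0.02, on both sides of 0.

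Within single libraries the mean of large minus that of small subunit members ran from -0.016 to 0.044 (log2) with AGEs and glucose, -0.055 to -0.010 with AGEs, -0.002 to 0.042 with glucose, and -0.060 to 0.032 with BSA. The AGEs libraries were all below 0, and they overlapped with those of BSA. The 46 members listed with a bacterial counterpart had medians against BSA of 0.14, 0.06 and 0.11 for AGEs with glucose, AGEs and glucose. The 31 members listed as specific to mitochondria had 0.06, 0.05 and 0.10.

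The order of the group means placed BSA last in most members. The BSA mean was the lowest of the 4 in 41 of 78 members (52.6%, against 24.9% of all genes tested), in 27 of 49 large and 14 of 29 small subunit members. AGEs held the lowest mean in 16, glucose in 14 and AGEs with glucose in 7 members. The highest mean was that of glucose in 30 members (38.5%, against 28.4% of all genes), of AGEs with glucose in 28 (35.9%, against 21.3%), of AGEs in 14 (17.9%, against 24.3%) and of BSA in 6 (7.69%, against 26.0%). Glucose was highest in 21 large and 9 small subunit members, and AGEs with glucose in 17 and 11.

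The comparisons among the stimulated groups also gave no call. The count of members called was 0 in AGEs with glucose minus AGEs (0.0103% of all genes), 0 in AGEs with glucose minus glucose (0.0308%) and 0 in AGEs minus glucose (0.041%). An unadjusted limma p under 0.05 was found for 3, 1 and 4 members, against 3.72%, 6.05% and 9.61% of all genes. Members lay on both sides, with 49, 39 and 34 of 78 above 0 and medians of 0.02, -0.001 and -0.03 (log2). Every library of the first group lay above every library of the second in 5 members (6.41%, against 4.01% of all genes), 2 members (2.56%, against 7.67%) and 1 member (1.28%, against 6.9%). Every library lay below in 3 members (3.85%, against 4.81%), 4 members (5.13%, against 7.86%) and 6 members (7.69%, against 5.49%). These comparisons share libraries with one another and with those against BSA.

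Adding glucose to AGEs gave the smallest p to MRPL10, the anchor of the factor-binding stalk, and MRPL22. MRPL22 had 4.89, 4.30 and 4.43 FPKM with AGEs and glucose, against 3.17, 4.28 and 3.72 FPKM with AGEs. The groups met within 0.1 FPKM, and the difference was 0.23 ± 0.10 (log2, SE; limma adjusted p = 0.984). Without AGEs 1 it was 0.15. MRPL36 differed by 0.66 ± 0.30 with overlapping groups, by 0.36 without AGEs 1 and by 1.04 without AGEs 2. MRPS25, a small subunit protein specific to mitochondria, had 4.11, 5.12 and 3.81 FPKM with AGEs and glucose, against 5.37, 6.30 and 6.76 FPKM with AGEs. It was lower in all 3, by -0.42 ± 0.19 (limma adjusted p = 0.984). MRPL38 and MRPL28 differed by -0.12 ± 0.07 and -0.11 ± 0.07 at the same adjusted p, and MRPL38 by -0.07 without AGEs 3.

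Adding AGEs to glucose gave MRPL24 the smallest p. It had 21.9, 19.4 and 21.2 FPKM with AGEs and glucose, against 25.2, 26.3 and 21.9 FPKM with glucose alone. The groups were just apart, and the difference was -0.22 ± 0.09 (log2, SE; limma adjusted p = 0.805). MRPS11 and MRPS30 were also on the lower side, at -0.26 ± 0.12 and -0.14 ± 0.07 (limma adjusted p = 0.815 and 0.829). MRPL19, MRPL9 and MRPS16 led the higher side, at 0.90 ± 0.41, 0.17 ± 0.08 and 0.26 ± 0.12 (limma adjusted p = 0.815 for each). Without glucose 2 MRPL19 was at 1.40, and without glucose 3 MRPS16 was at 0.12.

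Between AGEs and glucose, MRPL10 lay 0.76 lower with AGEs (log2 difference -0.76 ± 0.21 SE, limma adjusted p = 0.312). MRPL24 differed by -0.23 ± 0.09 (limma adjusted p = 0.473). MRPL3, near the peptidyl transferase centre, had 19.4, 21.3 and 20.5 FPKM with AGEs, against 23.2, 23.3 and 23.8 FPKM with glucose. It was lower in all 3 AGEs libraries, by -0.19 ± 0.08 (limma adjusted p = 0.505). MRPL28, MRPL43 and MRPS18A were on the higher side, at 0.14 ± 0.07, 0.32 ± 0.20 and 0.10 ± 0.07 (limma adjusted p = 0.586, 0.639 and 0.661). The value of MRPL43 rests on the low library glucose 3 and was 0.03 without it, and that of MRPS18A was 0.06 without AGEs 1.

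The interaction asks whether the effect of AGEs differs with and without glucose. It called 0 members (0.0103% of all genes), and 8 had an unadjusted limma p under 0.05, against 4.89% of all genes. Its median over members was -0.04 (log2), with 48 of 78 below 0 and 38.5% above, against 50.2% of all genes above. Of the 8, 6 lay below 0 and 2 above. Among the 6, MRPL1 had -0.43 ± 0.14, MRPL24 -0.39 ± 0.13 and MRPS24 -0.63 ± 0.21 (log2, SE; limma adjusted p = 0.936 for each). The highest value of any member was 1.43, that of MRPL19, on the other side of 0. It rests on low values of MRPL19 in AGEs 3, glucose 1 and glucose 3, at 2.24, 2.06 and 2.05 FPKM. MRPL1, MRPL24 and MRPS24 had already been named for standing above BSA with a single stimulus. Values with a single stimulus enter this contrast with a minus sign, so such members tend to lie below 0 in it. In these 3 members the group mean with both stimuli was below the higher of the means with a single stimulus.

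Several members had values that lay at separate levels rather than around 1 mean. A step of at least 1.5-fold between neighbouring values, when the 12 libraries are sorted, was found in 7 members (8.97%, against 7.11% of all genes tested) and a step of at least 2-fold in 3 members (3.85%, against 2.75%). These shares are near those of all genes. The 7 were MRPS2, MRPL19, MRPL30, MRPL43, MRPL36, MRPL49 and MRPS24, chosen after their values were seen. AGEs 3 was a low library in 4 of them, MRPS2, MRPL19, MRPL49 and MRPL36, and glucose 3 in MRPL19 and MRPL43, while the other low and high libraries varied.

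MRPL10 showed its levels by group. It stood at 11.5, 11.1 and 11.7 FPKM with AGEs and glucose, 6.58, 5.42 and 5.63 FPKM with AGEs, 11.95, 10.5 and 9.60 FPKM with glucose, and 5.504, 5.72 and 11.8 FPKM with BSA. All 6 libraries given glucose were high, all 3 with AGEs alone were low, and BSA 3 stood with the high ones while BSA 1 and BSA 2 stood with the low. AGEs with glucose minus AGEs was 0.86 ± 0.21 (log2, SE; limma adjusted p = 0.984, from 0.013 to 1.0 over the alternatives). Without BSA 3 it was 0.86 with an adjusted p of 0.013. AGEs with glucose minus BSA was then 0.91 and glucose minus BSA 0.82 (adjusted p = 0.0138 and 0.0284), and AGEs minus glucose -0.76 (adjusted p = 0.018). These adjusted p-values are from limma and rest on leaving out the 1 control library that disagreed.

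MRPL19, a protein at the interface of the subunits in the bacterial ribosome, was low in 3 libraries. It had 6.92, 7.04 and 7.15 FPKM with AGEs and glucose, 6.53, 6.84 and 2.24 FPKM with AGEs, 2.06, 7.64 and 2.05 FPKM with glucose, and 6.93, 7.79 and 7.33 FPKM with BSA. AGEs 3, glucose 1 and glucose 3 were low, and the other 9 libraries lay together, so that the step was 2.91-fold. MRPS2 was low in 1 library, AGEs 3 at 3.79 FPKM, with all others at 12 FPKM or more, a step of 3.17-fold.

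MRPL30 was high in glucose 1 alone, at 21.9 FPKM, against a range of 5.22 to 9.76 FPKM in the other libraries. MRPL43 was low in glucose 3 alone, at 2.05 FPKM, against 4.04 to 5.01 FPKM elsewhere. MRPS35 was low in glucose 1, at 26.8 FPKM, with the others at 37.7 FPKM or more. Each of these single libraries differs from its own group, and the spread within the group is then wide.

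MRPL49 and MRPL36 were split in several groups. MRPL49 had 5.06, 11.1 and 6.19 FPKM with AGEs and glucose, 10.9, 10.3 and 4.61 FPKM with AGEs, 10.5, 9.89 and 10.2 FPKM with glucose, and 4.50, 5.15 and 9.60 FPKM with BSA. Its overlapping neighbour SYVN1 had 7.75, 8.82 and 7.16 FPKM with AGEs and glucose, 6.94, 9.13 and 9.32 FPKM with AGEs, 6.57, 9.05 and 6.55 FPKM with glucose, and 9.37, 10.2 and 8.37 FPKM with BSA. SYVN1 had no such step. MRPL36 had 7.34, 7.68 and 7.67 FPKM with AGEs and glucose, 2.62, 8.31 and 3.76 FPKM with AGEs, 6.83, 8.37 and 6.09 FPKM with glucose, and 6.23, 5.91 and 3.46 FPKM with BSA. AGEs 1, AGEs 3 and BSA 3 were low. Its neighbour NDUFS6 ran from 22.5 to 33.1 FPKM and had no step of that size. How isoforms or shared reads were assigned to these genes was not tested.

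**Figure D4:**
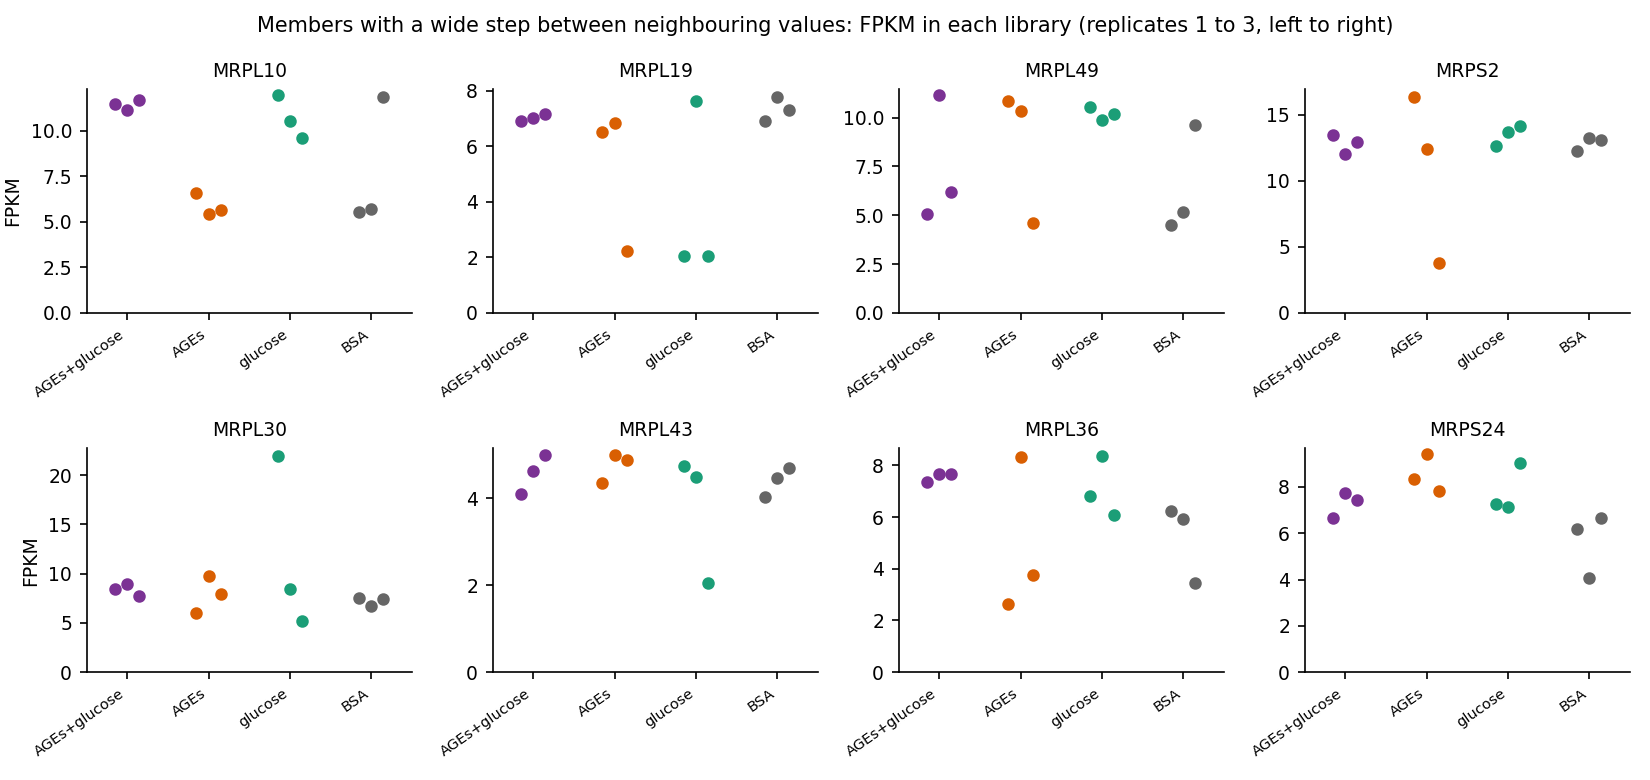
FPKM of MRPL10 and the 7 members with a step of at least 1.5-fold between neighbouring sorted values, in each of the 12 libraries by group, replicates 1 to 3 from left to right. MRPL10 is high in every library with glucose and low in every library with AGEs alone, and AGEs 3 is low in MRPS2, MRPL19, MRPL49 and MRPL36.

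The other parts of the mitochondrial translation system were read in the same fits, and none of their genes was called against BSA. Of 5 ribosomal proteins with other names 4 lay above 0 in each comparison, with medians of 0.11, 0.10 and 0.11 (log2) for AGEs with glucose, AGEs and glucose. DAP3, a GTPase of the small subunit, had 16.4, 21.5 and 17.4 FPKM with AGEs and glucose, 16.2, 15.8 and 15.2 FPKM with AGEs, 17.2, 17.6 and 21.02 FPKM with glucose, and 14.7, 16.01 and 16.2 FPKM with BSA. The libraries with glucose, with or without AGEs, were all above those with BSA. GADD45GIP1, a large subunit protein also known as CRIF1, averaged 24.7 ± 2.63, 25.9 ± 2.79, 26.0 ± 2.82 and 22.8 ± 2.44 FPKM (SD, n = 3) with AGEs and glucose, AGEs, glucose and BSA.

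Of 26 assembly and ribosomal RNA factors 18, 19 and 20 lay above 0 for AGEs with glucose, AGEs and glucose, with medians of 0.09, 0.07 and 0.09 (log2). MTERF3, which is needed for the assembly of the large subunit in mice, averaged 5.39 ± 0.636, 5.02 ± 1.16, 5.66 ± 0.436 and 4.02 ± 0.231 FPKM (SD, n = 3) with AGEs and glucose, AGEs, glucose and BSA. Its glucose minus BSA difference was 0.41 ± 0.13 (SE; limma adjusted p = 0.311). FASTKD2, which binds the large ribosomal RNA of mitochondria, differed by 0.21 ± 0.08 (limma adjusted p = 0.445).

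Translation factors lay above 0 in 8, 4 and 10 of 13 for AGEs with glucose, AGEs and glucose. GFM1, the mitochondrial elongation factor G, averaged 6.14 ± 0.54 FPKM with glucose and 5.08 ± 0.495 FPKM with BSA (SD, n = 3), with glucose minus BSA at 0.23 ± 0.09 (limma adjusted p = 0.394). MRRF, the ribosome recycling factor, averaged 4.08 ± 0.299 FPKM with glucose and 3.36 ± 0.32 FPKM with BSA (0.22 ± 0.09, limma adjusted p = 0.472). Both had lower means with AGEs, at 4.84 ± 0.128 and 3.57 ± 0.418 FPKM, than with glucose.

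Mitochondrial aminoacyl-tRNA synthetases and related enzymes lay above 0 in 12, 12 and 14 of 20, with medians of 0.03, 0.01 and 0.02 (log2). YARS2, which charges the tyrosine transfer RNA, differed in glucose minus BSA by 0.22 ± 0.10 (limma adjusted p = 0.476) and GATB, of the glutamyl-tRNA amidotransferase, by 0.18 ± 0.08 (limma adjusted p = 0.527). Genes of mitochondrial DNA and RNA upkeep lay above 0 in 5, 7 and 11 of 16. TFB2M, a transcription factor of the organelle, and HSD17B10, a subunit of its RNase P, differed in glucose minus BSA by 0.27 ± 0.08 and 0.37 ± 0.12 (limma adjusted p = 0.309 and 0.354).

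The messages that the ribosome translates lay on either side of BSA. The 13 mitochondrially encoded protein genes lay above 0 in 11, 0 and 4 for AGEs with glucose, AGEs and glucose, with medians of 0.04, -0.04 and -0.03 (log2). MT-CO1, a core subunit of cytochrome oxidase, averaged 6200 ± 54.5, 6030 ± 285, 5990 ± 173 and 6340 ± 243 FPKM (SD, n = 3) with AGEs and glucose, AGEs, glucose and BSA. MT-ND3, a complex I subunit, averaged 2440 ± 25, 2140 ± 258, 2430 ± 311 and 2200 ± 166 FPKM in the same order. Neither was called. MT-ND3 lay above all BSA libraries in the 3 libraries with AGEs and glucose, whose values were close together.

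Nuclear genes of oxidative phosphorylation lay above BSA in 72, 66 and 74 of 77, with medians of 0.17, 0.09 and 0.17 (log2). NDUFS8 and NDUFB8, subunits of complex I, differed in glucose minus BSA by 0.41 ± 0.11 and 0.28 ± 0.08 (SE; limma adjusted p = 0.248 and 0.305). Cytosolic ribosomal proteins lay above BSA in 71, 69 and 78 of 83, with medians of 0.08, 0.05 and 0.09. RPS13 and RPL21 differed in glucose minus BSA by 0.19 ± 0.06 and 0.16 ± 0.06 (limma adjusted p = 0.333 and 0.383). Lists outside the mitochondrial ribosome thus lay above BSA too, and the lists were not tested against each other.

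**Figure D5:**
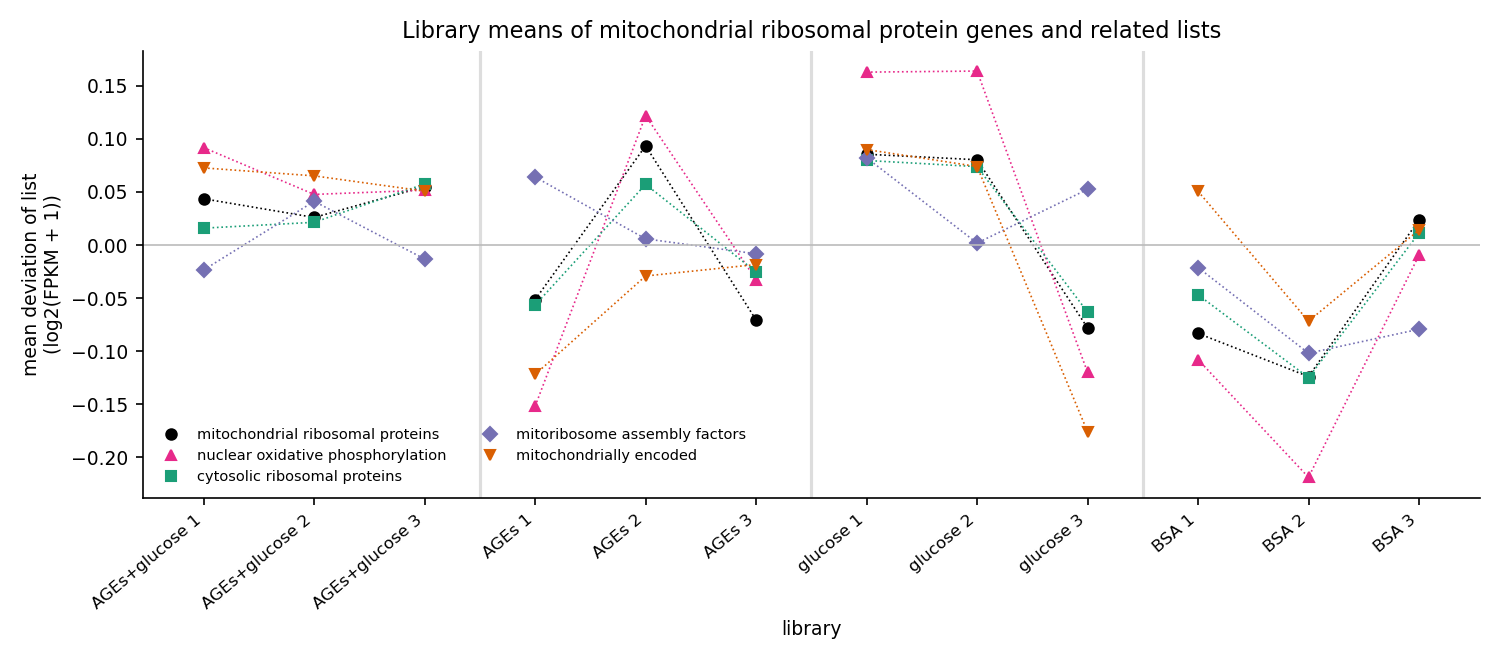
Mean deviation of the 78 members and of 4 related gene lists from each gene's 12-library mean, on the log2(FPKM + 1) scale, in each library; dotted lines join the libraries of a group. The members (black circles) stand with the cytosolic ribosomal proteins and nuclear oxidative phosphorylation genes: low in AGEs 1, glucose 3, BSA 1 and BSA 2, and high in AGEs 2, glucose 1 and glucose 2. In AGEs 3 the members, at -0.071, lie below the cytosolic ribosomal proteins, at -0.025, and the oxidative phosphorylation genes, at -0.033.

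Markers of other blood cells were measured beside these values. Of 11 eosinophil and basophil markers 6 were measured, all 6 above 0 in each comparison with BSA, and their summed level ran from 2706 to 2791 FPKM with AGEs and glucose, 2441 to 2605 with AGEs, 2399 to 2635 with glucose and 2195 to 2479 with BSA. Most of that sum was CLC, at 2200 ± 117 FPKM with BSA (SD, n = 3). The 14 neutrophil markers summed to 1818 to 1858, 1780 to 1866, 1670 to 1776 and 1804 to 1841 FPKM in the same order. In glucose minus BSA 9 of the 14 lay below 0 and 5 above 0, of which S100A8 was the farthest from 0 at 0.25 (log2). An unadjusted limma p under 0.05 was found for 5 of the 14, against 10.0% of all genes. CSF3R, the receptor of granulocyte colony-stimulating factor, averaged 13.2 ± 0.523 FPKM with glucose and 17.8 ± 0.49 FPKM with BSA (SD, n = 3), a difference of -0.41 ± 0.07 (log2, SE; limma adjusted p = 0.0696). The measured monocyte marker CSF1R averaged 6.66 ± 0.446 FPKM with glucose and 9.74 ± 1.0 FPKM with BSA, a difference of -0.49 ± 0.10 (limma adjusted p = 0.138). Only 1 of 8 monocyte markers (CSF1R), 1 of 9 erythroid and platelet markers (ITGA2B) and 3 of 8 lymphoid markers passed the filter. The sum of each of these lists was at most 13.8 FPKM in any library. Markers that did not pass were below the filter, absent from the deposited table or not found by symbol. The eosinophil and basophil markers stood higher with the members. In glucose minus BSA CSF1R and 9 of 14 neutrophil markers, CSF3R among them, stood lower, and 5 neutrophil markers stood higher. The part of all these markers in the result was not tested. In bulk RNA more cells of a type and more RNA per cell cannot be told apart.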

How the data were processed

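Gene-level FPKM values of 12 RNA-seq libraries were used as the authors deposited them, per the file headers. Per the submitters' processing notes, which give no role or order, the tools were STAR 2.5.2b, StringTie, HISAT2 2.0.5 and cutadapt, with hg19 as genome build, and the gene annotation is not given in the sources used here. Of 10465 rows, 19 symbols stood in 2 rows. Every row has a group mean of at least 0.5001 FPKM in some group. Rows with at least 1 FPKM in at least 3 libraries were kept (9751 rows, counted as genes, and 714 rows removed). Symbols in 2 rows were not left out of the fit, and only members had to stand once. Differences were fitted with limma 3.58.1 in R 4.3.3 on log2(FPKM + 1), with all 12 libraries, group means, and trended and robust moderation, and p-values were adjusted over all genes. The pseudocount of 1 makes fold changes of low genes smaller. The fit was tested on simulated data.

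The members and lists were chosen with earlier results of these data known. Named members are the 3 on each side of 0 with the smallest p in each of 6 comparisons, the 5 highest and the 5 lowest in level, MRPL12, MRPS18A, MRPS18B, MRPS18C, MRPS30 and MRPS36, plus those stated as chosen after their values were seen. In each other list up to 2 genes with the smallest p in glucose minus BSA are named. MRPL57 and MRPL58, entries of the list of ribosomal proteins with other names, were counted as members only. Subunit, origin and roles are textbook knowledge. GC content and length are those of the longest GENCODE 29 transcript (96.8% of genes tested, all 78 members). Alternatives were a pseudocount of 0.1, no filter, a mean of at least 5 FPKM, trimmed-mean and quantile scaling, library weights, a replicate block, GC and length trends removed, the compared groups alone, and each library left out. FPKM gives no depth, so no counting interval was computed.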

Additional observations from a re-analysis of the deposited data

How the results depend on the processing

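The count of members called stayed at 0 under all alternatives in AGEs minus BSA, AGEs with glucose minus glucose and the interaction. In glucose minus BSA it was 1 with GC and length trends removed (MRPL24) and 2 with library weights (MRPL24 and MRPL1). With 1 library left out it ran from 0 to 1 in glucose minus BSA, AGEs with glucose minus BSA, AGEs with glucose minus AGEs and AGEs minus glucose, the 1 being MRPL10 without BSA 3. The share of all genes called under these alternatives is not given here. The counts are therefore not read as a result about the members. Large minus small subunit in AGEs minus BSA was -0.0463 (log2) after quantile normalization and -0.058 with GC and length trends removed, with or without the replicate block. With 1 library left out it ran from -0.018 to -0.0039. In glucose minus BSA it was 0.0104 after quantile normalization and ran from 0.0065 to 0.0652 with 1 library left out. In AGEs with glucose minus BSA it was -0.0356 with GC and length trends removed, with or without the block, and ran from -0.0253 to 0.0175 with 1 library left out. The cause was not tested. All 859 values of named members under the alternatives kept their direction. These members were named for the smallest p on each side of 0 in the same data, so a kept direction was largely set by that choice. Many alternatives also leave out a library of a group that the value does not use. Without 1 library of their own groups, 17 of 36 named values moved by over 1.5 times. No pairing of libraries by replicate number was seen. Same-numbered libraries of 2 groups had correlations of -0.21 to 0.13 over 18 pairs, and 3 of 12 libraries correlated best with their own number. With 3 libraries a group a weak pairing could be missed, and the labels do not say what a number marks. The replicate block gave 0 members called in every comparison. The alternative without AGEs 1 and glucose 3 together was chosen after seeing the data. The comparison of only the groups concerned could not be made for the interaction, and a mean of at least 5 FPKM leaves 69 of 78 members. Depth is unknown.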
